A study of Homo sapiens with 12 samples.

Results

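The genes for the subunits of AP-1 were followed by symbol in a table of read counts: the FOS family genes FOS, FOSB, FOSL1 and FOSL2, the JUN family genes JUN, JUNB and JUND, and ATF3. They are 8 of the 60612 rows of the table, and all 8 were among the 17779 genes that passed a filter on low counts. The genes were chosen by name, as a family, with earlier results of the same libraries known: the measured values behind the choice were the differences of 10 and 30 min from 0 min, in which FOS, FOSB, JUN and JUNB were lower. Those differences are therefore given as a description, without p-values, and their counts of calls stand beside the shares over all genes with nothing read from them. The libraries hold polyadenylated RNA of HepG2, a single established human liver cancer line that keeps many features of hepatocytes. Untreated cells (0 min) were set beside cells exposed to 0.001 µM 2,4-D, a phenoxy herbicide that mimics the plant hormone auxin, for 10, 30 or 360 min, with 3 biological replicates in each group. Cells of every group were detached with trypsin and EDTA before lysis in Trizol, per the labels' protocols. Untreated cells of the later times were not analysed here, so exposure and elapsed time cannot be told apart.

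AP-1 is a dimer of basic leucine zipper proteins that binds DNA at sites of the type TGAGTCA. JUN proteins pair with each other and with FOS proteins, whereas FOS proteins need a partner from another family, and ATF3 pairs with JUN proteins and with itself. FOS, FOSB, JUN, JUNB and ATF3 are immediate early genes: growth factors and stress can switch them on within minutes through MAP kinases and factors already bound at their promoters, and their mRNAs decay fast. JUND is expressed more evenly in most cells, and JUN is known in liver for its part in hepatocyte proliferation and regeneration.

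Promoters are shown for FOS, FOSB and JUN, which had the largest differences between the groups, and for JUND, which had the smallest at 10 and 360 min against 0 min. The 250 bases before the annotated start are given 5′ to 3′ on the gene's strand, from RefSeq on GRCh38.p14. Capitals mark matches on either strand. The letters searched were the AP-1 site TGAGTCA, the cyclic AMP response element TGACGTCA and its core TGACGT, the variant AP-1 site known from JUN, TGACATCA, the TATA box as TATAAA, the binding site of SP1 as GGGCGG, the box for the factor NF-Y as CCAAT, and the CArG box, at which SRF binds. The core TGACGT lies within the whole element, and it was added to the search after the promoters had been read. FOS lies at chr14:75278578-75278827, plus strand, FOSB at chr19:45467746-45467995, plus strand, JUN at chr1:58784048-58784297, minus strand, and JUND at chr19:18281623-18281872, minus strand.
FOS: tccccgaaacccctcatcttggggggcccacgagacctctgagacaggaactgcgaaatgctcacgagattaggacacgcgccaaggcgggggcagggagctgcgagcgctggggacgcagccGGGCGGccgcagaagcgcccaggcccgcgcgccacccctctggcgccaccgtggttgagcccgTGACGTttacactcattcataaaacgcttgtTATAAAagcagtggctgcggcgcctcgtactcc
FOSB: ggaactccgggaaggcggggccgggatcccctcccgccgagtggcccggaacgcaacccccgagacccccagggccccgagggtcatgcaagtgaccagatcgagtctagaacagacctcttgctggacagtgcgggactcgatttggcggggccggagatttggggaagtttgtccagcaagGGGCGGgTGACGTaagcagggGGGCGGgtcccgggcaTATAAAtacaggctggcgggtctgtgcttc
JUN: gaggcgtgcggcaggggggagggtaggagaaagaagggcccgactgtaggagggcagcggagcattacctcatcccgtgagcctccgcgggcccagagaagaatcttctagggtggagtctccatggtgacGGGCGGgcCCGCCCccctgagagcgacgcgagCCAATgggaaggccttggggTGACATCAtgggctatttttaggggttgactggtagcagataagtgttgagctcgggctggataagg
JUND: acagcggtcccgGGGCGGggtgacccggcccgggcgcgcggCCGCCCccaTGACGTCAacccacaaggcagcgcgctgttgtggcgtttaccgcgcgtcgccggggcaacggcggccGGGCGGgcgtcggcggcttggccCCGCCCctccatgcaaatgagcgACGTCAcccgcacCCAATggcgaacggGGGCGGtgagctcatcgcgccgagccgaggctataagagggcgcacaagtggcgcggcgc

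A TATAAA match began 33 bases upstream of the start in FOS, 30 in FOSB and 31 in JUNB. ATF3 had one 230 bases upstream of the second of its 2 listed starts. Of 35116 promoters of the same 300-base window, 11.5% held a match. A TGACGT match, the core of a site for CREB and ATF proteins, began 64 bases upstream in FOS, 60 in FOSB and 66 in FOSL2. JUND held it 87 bases upstream and again within the whole TGACGTCA 200 bases upstream. Of all promoters, 7.98% held TGACGT and 1.85% held TGACGTCA. JUN had TGACATCA, a variant AP-1 site, 67 bases upstream, and ATF3 had it 123 bases upstream of the first of its 2 listed starts, against 2.61% of promoters. FOSL2 alone of the 7 genes with a promoter entry had TGAGTCA, 5 bases past its start (4.95% of promoters). CCAAT lay in JUN, JUNB, JUND and ATF3, and GGGCGG in each of the 7 genes except JUNB. Both are common elements (34.6% and 45.0% of promoters). No CArG box lay in these windows, and 1.29% of promoters had one. These matches are letters in a window and were not measured as bound sites.

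The 12 libraries held 29766148 to 83539763 counts each, so that 3 counts, the limit that a count of 0 allows, were worth 0.0359 to 0.101 CPM, or counts per 1000000. The lowest count of any member in any library was 26. All 10 hepatocyte markers were detected in every group, with a summed level of 30474 to 35086 CPM, and ALB alone at 7871 to 9516 CPM. The fibroblast genes COL1A2 and DCN, the endothelial gene KDR and the leukocyte gene PTPRC were at 0 in all 12 libraries, and the summed fibroblast list was at 1.90 to 3.72 CPM and the endothelial list at 1.29 to 2.21 CPM. Of the markers of kidney and other epithelia, PAX2 was at 0, CDH16 at 24.1 to 31.4 CPM and PAX8 at 4.82 to 8.02 CPM, and the list summed to 29.1 to 38.3 CPM. CD68, also expressed outside macrophages, was at 48.6 to 64.6 CPM. The share of counts from mitochondrial genes fell into 2 ranges. It was 3.55% to 4.39% in 7 libraries (0 min replicate 1, all of 10 min, 30 min replicates 2 and 3, 360 min replicate 3) and 2.52% to 2.74% in the other 5. Untreated replicate 1 thus lay apart from untreated replicates 2 and 3, and differences of the members from 0 min are given below also with that library as the only untreated one. That fit takes the spread from the other groups and assumes that the lone library varies like them.

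FOS, the prototype partner of JUN, varied widely between the untreated replicates. It lies on chromosome 14 (75278774 to 75282230, plus strand). Its level was 14.1, 105.5 and 136 CPM in untreated replicates 1, 2 and 3. At 10 min it was 13.0, 10.6 and 7.10 CPM, at 30 min 3.09, 3.52 and 2.21 CPM, and at 360 min 1.59, 2.93 and 1.80 CPM. Every exposed library was below every untreated one, and the libraries of 30 and 360 min overlapped each other. Untreated replicate 1 was close to the 10 min libraries, and replicates 2 and 3 were far above it. The group means were 85.1 ± 63.3 CPM (SD, n = 3) at 0 min, 10.2 ± 2.96 at 10 min, 2.94 ± 0.670 at 30 min and 2.11 ± 0.722 at 360 min.

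FOSB, a close relative of FOS with the same dimer partners, had the same split among the untreated replicates. It lies on chromosome 19 (45467995 to 45475179, plus strand) and overlaps ERCC1 on the other strand. Its level was 6.11, 55.5 and 75.1 CPM in the untreated replicates. At 10 min it was 4.12, 2.41 and 2.51 CPM, at 30 min 1.39, 1.23 and 0.727 CPM, and at 360 min 0.875, 0.978 and 0.941 CPM. No exposed library reached an untreated one, and all 3 values of 10 min lay above those of 30 and 360 min. Means went from 45.6 ± 35.6 CPM (SD, n = 3) at 0 min to 0.931 ± 0.0521 CPM at 360 min. ERCC1, at 40.5 to 50.4 CPM over the 12 libraries, has reads that cannot be told from those of FOSB where they overlap without strand. It differed from 0 min by a log2 value of 0.02 ± 0.05 (SE) at 30 min and -0.13 ± 0.05 at 360 min. At 360 min against 10 min ERCC1 was at -0.21 ± 0.05.

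FOSL1 (FRA-1) and FOSL2 (FRA-2), FOS relatives that lack the strong activation domain of FOS, varied far less. FOSL1 lies on chromosome 11 (65892049 to 65900573, minus strand). The untreated replicates stood at 15.0, 11.6 and 11.7 CPM and those of 10 min at 11.9, 11.8 and 12.6 CPM. The replicates of 30 min stood at 8.42, 9.99 and 9.03 CPM and those of 360 min at 11.5, 11.4 and 12.9 CPM. The 3 libraries of 30 min were the lowest of the 12, and the other groups overlapped. FOSL2 lies on chromosome 2 (28392448 to 28417312, plus strand). The untreated replicates stood at 15.3, 16.3 and 16.5 CPM and those of 10 min at 19.8, 17.2 and 18.1 CPM. The replicates of 30 min stood at 13.8, 15.0 and 15.2 CPM and those of 360 min at 15.1, 13.8 and 16.0 CPM. The 10 min libraries were the highest of all, without overlap with any other group.

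JUN, the founding member of AP-1 and able to pair with all the others, is a gene without introns on chromosome 1 (58780788 to 58784327, minus strand). Its level was 35.3, 95.7 and 108 CPM in the untreated replicates. At 10 min it was 27.5, 24.1 and 27.6 CPM, at 30 min 27.8, 23.9 and 23.4 CPM, and at 360 min 21.8, 24.6 and 20.9 CPM. All untreated libraries were above all exposed ones, and the 3 exposed groups overlapped each other. As with FOS, untreated replicate 1 was nearer to the exposed libraries than to its own group.

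JUNB, which can oppose JUN at some promoters, lies on chromosome 19 (12791496 to 12793315, plus strand) and overlaps HOOK2 on the other strand. The untreated replicates stood at 14.9, 20.3 and 23.0 CPM and those of 10 min at 14.5, 14.7 and 12.8 CPM. The replicates of 30 min stood at 9.08, 10.5 and 8.84 CPM and those of 360 min at 12.3, 11.8 and 14.4 CPM. The 30 min libraries were the lowest, and 10 and 360 min overlapped. HOOK2 differed from 0 min by a log2 value of 0.00 at 30 min and 0.05 ± 0.06 (SE) at 360 min. JUND, the evenly expressed JUN protein, lies on chromosome 19 (18279760 to 18281622, minus strand). The untreated replicates stood at 58.5, 63.4 and 72.8 CPM and those of 10 min at 63.5, 63.9 and 62.0 CPM. The replicates of 30 min stood at 57.9, 57.8 and 61.6 CPM and those of 360 min at 67.7, 69.6 and 62.0 CPM. The untreated libraries spanned almost the whole range of JUND.

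ATF3, a stress-induced member of the ATF family that represses many targets, lies on chromosome 1 (212565334 to 212620777, plus strand). The untreated replicates stood at 2.97, 3.03 and 3.53 CPM and those of 10 min at 3.03, 2.67 and 2.57 CPM. The replicates of 30 min stood at 2.28, 2.22 and 1.93 CPM and those of 360 min at 1.56, 1.90 and 1.55 CPM. Each of 30 and 360 min lay wholly below the group before it, and the untreated replicates were close together. In bulk RNA, fewer cells with a transcript and less of it per cell cannot be told apart for any of these genes.

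**Figure D1:**
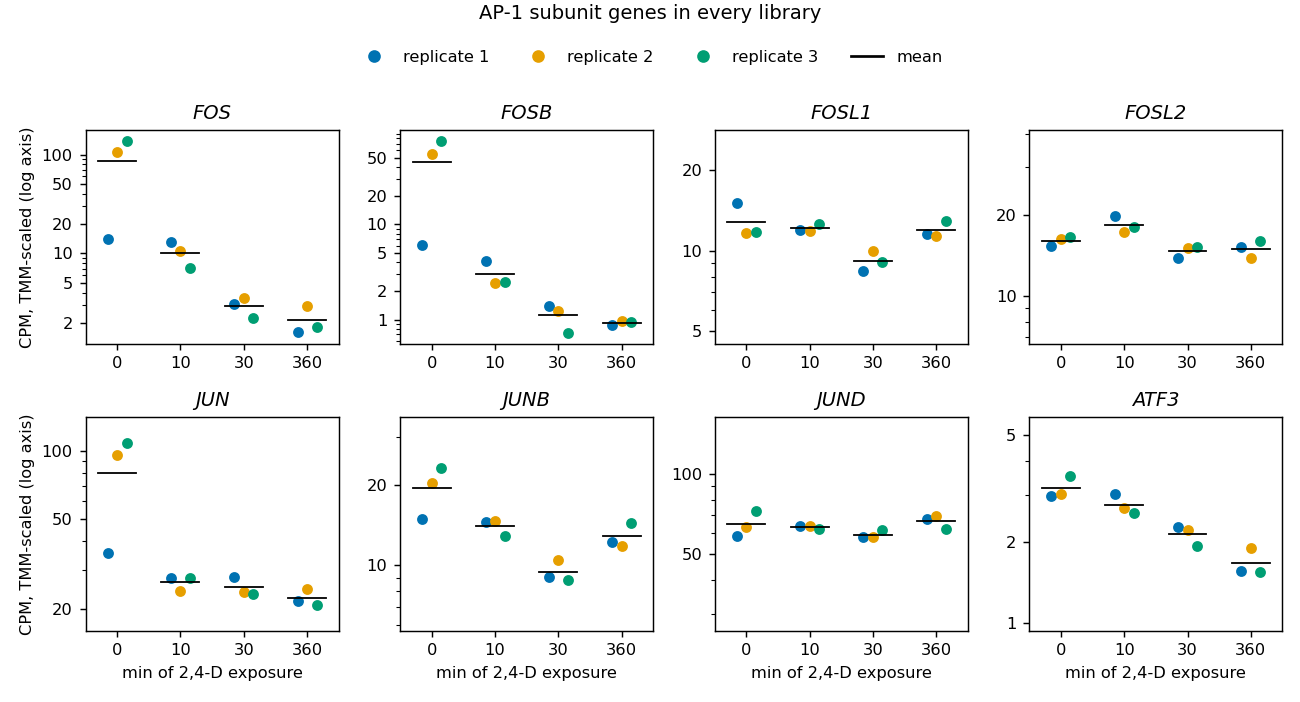
Level of each AP-1 subunit gene in every library (y axis, TMM-scaled CPM on a log axis) against minutes of exposure to 0.001 µM 2,4-D (x axis). There is 1 coloured point per replicate, and a short horizontal line marks the mean of each group. FOS, FOSB and JUN have a wide spread at 0 min, where replicate 1 (14.1, 6.11 and 35.3 CPM) lies below replicates 2 and 3, and JUND stays between 57.8 and 72.8 CPM.

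The spread between replicates, fitted per gene by edgeR over the 12 libraries, ranked the members as the plot of levels does. The biological coefficient of variation was 48.5% for FOSB, 45.5% for FOS and 23.6% for JUN. It was 12.3% for JUNB, 11.4% for ATF3, 9.72% for FOSL1, 6.82% for FOSL2 and 6.15% for JUND. Of the genes tested, 97.9% had a lower dispersion than FOS, 98.1% a lower one than FOSB and 89.9% a lower one than JUN. Fold changes of these 3 genes against 0 min also had wide errors. Those errors come from the quasi-likelihood test, which fits its own spread per gene over the 12 libraries. That spread also enters their errors between exposed groups.

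At 10 min against 0 min, FOSB was 15.2-fold lower (log2 fold change -3.93 ± 0.66, SE), FOS 8.39-fold lower (-3.07 ± 0.59) and JUN 3.03-fold lower (-1.60 ± 0.29). JUNB differed by a log2 value of -0.48 ± 0.14 and FOSL2 by 0.20 ± 0.07. ATF3, FOSL1 and JUND differed by -0.21 ± 0.13, -0.08 ± 0.10 and -0.04 ± 0.07. None of the 8 passed the threshold of edgeR (Benjamini-Hochberg adjusted p under 0.05), which 0.0169% of all genes did. At an unadjusted p under 0.05 there were 5 (10.9% of all genes), with DESeq2 4 at the adjusted threshold (1.17% of its genes), and with limma voom 0. FOS, FOSB, JUN and JUNB had groups without overlap in the lower direction (7.72% of all genes) and FOSL2 in the higher one (7.73%). With untreated replicate 1 as the only untreated library, the log2 values were -0.46 for FOS, -1.01 for FOSB, -0.41 for JUN, -0.30 for FOSL1 and 0.27 for FOSL2. They were -0.09 for JUNB, -0.10 for ATF3 and 0.12 for JUND, whose sign turned.

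At 30 min against 0 min, FOSB was 39.0-fold lower (log2 -5.28 ± 0.70, SE), FOS 28.2-fold lower (-4.82 ± 0.64), JUN 3.19-fold lower (-1.67 ± 0.28) and JUNB 2.05-fold lower (-1.04 ± 0.14). These 4 of 8 were called lower, beside 0.585% of all genes, and nothing is read from that count since the set was chosen with it known. ATF3, FOSL1, JUND and FOSL2 differed by -0.56 ± 0.13, -0.48 ± 0.10, -0.14 ± 0.07 and -0.13 ± 0.07. Every member except JUND had all 3 libraries of 30 min below all untreated ones, which 7.5% of all genes did. In limma voom FOS and FOSB were not called and ATF3 was, and DESeq2 added FOSL1. With untreated replicate 1 alone the log2 values were -2.24 for FOS, -2.41 for FOSB, -0.71 for FOSL1, -0.65 for JUNB and -0.49 for JUN. They were -0.46 for ATF3, -0.06 for FOSL2 and 0.02 for JUND.

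At 360 min, FOS, FOSB, JUN, JUNB and ATF3 fell against 0 min, and FOSL1, FOSL2 and JUND did not pass the test. FOS had a log2 fold change of -5.42 ± 0.68 (SE, adjusted p = 0.000155) and FOSB of -5.63 ± 0.73 (adjusted p = 0.000195), or 42.8-fold and 49.4-fold lower. JUN fell by 1.84 ± 0.29 (log2, adjusted p = 0.000759), ATF3 by 0.94 ± 0.13 (adjusted p = 0.000411) and JUNB by 0.60 ± 0.14 (adjusted p = 0.00801). FOSL1 differed by -0.09 (95% interval -0.32 to 0.13, adjusted p = 0.605), FOSL2 by -0.10 (-0.25 to 0.06, adjusted p = 0.411) and JUND by 0.03 (-0.11 to 0.18, adjusted p = 0.813). The 5 members called lower stand beside 9.19% of all genes, and the same 5 had groups without overlap, as 17.3% of all genes did. This comparison shares its untreated libraries with the 2 above and is not independent of them. FOSB was not called in limma voom (-5.19, adjusted p = 0.0622). With untreated replicate 1 alone, FOS was at -2.78, FOSB at -2.72, JUN at -0.66 and ATF3 at -0.84, past the threshold in a fit whose spread comes from the other groups. JUNB was at -0.22 (adjusted p = 0.364), FOSL1 at -0.33, FOSL2 at -0.03 and JUND at 0.18, and these 4 did not pass. Within the 5 libraries of low mitochondrial share all 5 members were called, beside 12.6% of all genes called there in either direction. The other 7 libraries include 1 untreated one. In them the log2 values were -2.97 for FOS, -2.70 for FOSB, -0.76 for JUN, -0.94 for ATF3 and -0.05 for JUNB.

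**Figure D2:**
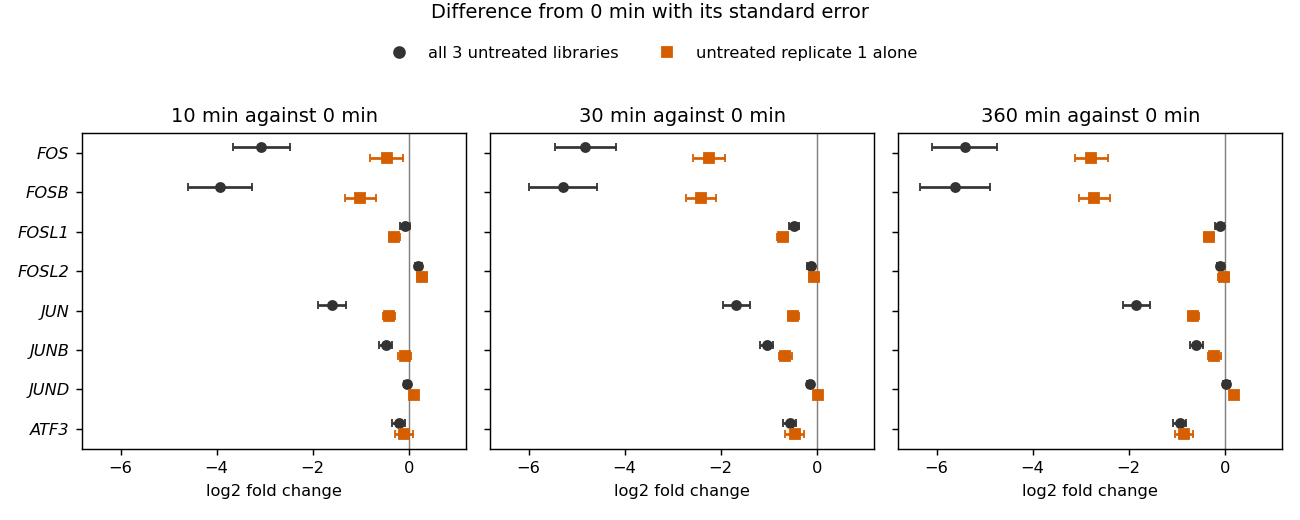
Log2 fold change against 0 min (x axis) of the 8 AP-1 subunit genes (y axis) at 10, 30 and 360 min, with bars of 1 SE. Black circles use all 3 untreated libraries and orange squares untreated replicate 1 alone, with which FOS at 360 min moves from -5.42 to -2.78 and JUN from -1.84 to -0.66.

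Among the exposed groups, where untreated libraries play no part beyond the shared estimate of spread, FOS, FOSB, JUN and JUNB differed by less than at 30 min against 0 min. Each of these comparisons shares the libraries of 10 or 30 min with the differences known when the genes were chosen. None is independent of them. All 8 members were below zero for 30 min against 10 min, 7 of 8 for 360 min against 10 min, and 4 of 8 for 360 min against 30 min. Between 10 and 30 min no member was called, in edgeR on all 12 libraries or in limma voom, beside 0.574% of all genes. FOSL2 was nearest, at -0.33 ± 0.07 (SE, adjusted p = 0.0733), followed by JUNB at -0.56 ± 0.14 (adjusted p = 0.112) and FOSL1 at -0.40 ± 0.11 (adjusted p = 0.131). DESeq2 called these 3 (1.98% of its genes), and 5 members had an unadjusted p under 0.05 in edgeR (11.9% of all genes). FOS differed by -1.75 ± 0.66 (adjusted p = 0.306) and FOSB by -1.36 ± 0.75 (adjusted p = 0.513). With edgeR fitted to these 2 groups alone, FOS (-1.78 ± 0.23, adjusted p = 0.0142) and JUNB (-0.56 ± 0.09, adjusted p = 0.0465) were called. In that fit 0.44% of all genes were called. All members except JUN had 30 min wholly below 10 min, which 8.96% of all genes had.

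Between 30 and 360 min FOSL1 rose by 0.39 ± 0.10 (log2, with SE, adjusted p = 0.0165) and JUNB by 0.44 ± 0.14 (adjusted p = 0.0350), beside 11.4% of all genes called higher. JUND differed by 0.17 ± 0.07 (adjusted p = 0.0899) and ATF3 by -0.38 ± 0.14 (adjusted p = 0.0632), and neither passed. FOSL1, JUNB and JUND had groups without overlap in the higher direction (19.8% of all genes) and ATF3 in the lower one (20%). FOS, at -0.60 with a 95% interval of -2.24 to 1.04 (adjusted p = 0.625), and FOSB, at -0.34 with an interval of -2.11 to 1.42 (adjusted p = 0.814), left wide room for a difference either way. With single libraries left out the log2 values stayed at 0.32 to 0.46 for FOSL1 and 0.35 to 0.52 for JUNB, but the calls did not: without 30 min replicate 1, 30 min replicate 3 or 360 min replicate 3 no member was called, and without 360 min replicate 1 only FOSL1 was.

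Between 10 and 360 min FOS fell by 2.35 ± 0.71 (log2, with SE, adjusted p = 0.0287), ATF3 by 0.74 ± 0.14 (adjusted p = 0.00181) and FOSL2 by 0.29 ± 0.07 (adjusted p = 0.0105). These 3 stand beside 12.7% of all genes called lower. FOSB differed by -1.70 ± 0.79 (adjusted p = 0.138), JUN by -0.24 ± 0.30 (adjusted p = 0.601) and JUNB by -0.12 ± 0.14 (adjusted p = 0.567). With edgeR fitted to these 2 groups alone, FOSB (-1.71 ± 0.23, adjusted p = 0.00118) and JUN (-0.25 ± 0.08, adjusted p = 0.0461) were called as well. In that fit 26.7% of all genes were called. FOSL1 was at -0.02 (95% interval -0.24 to 0.21) and JUND at 0.07 (-0.07 to 0.22). FOS, FOSB, FOSL2 and ATF3 had 360 min wholly below 10 min, as 19.6% of all genes had. The median log2 difference of the 8 members was -0.27 here and -0.07 between 30 and 360 min, beside medians of 0.01 and -0.00 over all genes. Without 10 min replicate 1 ATF3 alone was called. FOS also lost its call without 10 min replicate 2, 360 min replicate 1 or 360 min replicate 3, and in limma voom (adjusted p = 0.347).

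Levels of different genes were compared per kb of annotated exon. The 8 genes summed to 65.9, 124 and 147 CPM per kb in the untreated replicates, 60.6 to 64.4 at 10 min, 52.1 to 52.8 at 30 min and 57.3 to 60.3 at 360 min. The FOS family held 23.6%, 41.2% and 43.5% of that sum in the untreated replicates, 19.5% to 21.5% at 10 min, 14.6% to 16.5% at 30 min and 15.0% to 17.1% at 360 min. JUND had the highest level per kb in each group, at 34.8, 33.9, 31.7 and 35.7 CPM per kb for 0, 10, 30 and 360 min. At 0 min it was followed by FOS (26.3) and JUN (22.5), whose replicates overlapped each other and, for FOS, those of JUND. At 360 min JUNB (7.05), JUN (6.34) and FOSL1 (6.33) came next and were close to each other, and FOSB (0.168) was the lowest. The share of JUND was 26.6% to 47.6% at 0 min and 58.1% to 62.1% at 360 min. With the longest transcript in place of all exons, FOS (39.4) was above JUND (34.8) at 0 min. These shares are of RNA and depend on which annotated exons are used.

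**Figure D3:**
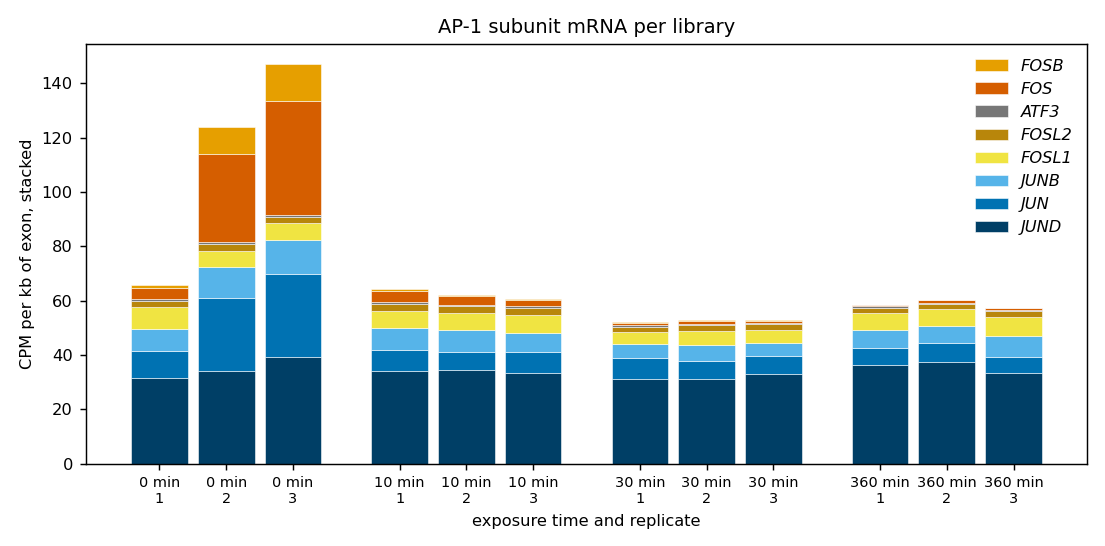
Summed level of the 8 AP-1 subunit genes in each of the 12 libraries (y axis, CPM per kb of annotated exon, from 0), stacked by gene. Untreated replicates 2 and 3 stand at 124 and 147, and the other 10 libraries lie between 52.1 and 65.9, with JUND the largest piece in each of those 10.

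The members did not share 1 pattern. Over the 12 libraries the Pearson correlation of log2 CPM was 0.98 between FOS and FOSB and 0.93 between FOS and JUN, and without untreated replicates 2 and 3 it was 0.95 and 0.75 over 10 libraries. It was 0.88 (0.96 without) between FOS and ATF3, 0.63 (0.91) between FOSL1 and JUNB and 0.33 (-0.23) between FOS and JUND. These values describe libraries that share groups and are given without a test. Of the other genes whose mean log2 CPM was 1 or more, CCN1 (0.99, and 0.95 without those 2 libraries), KLF6 (0.97 and 0.91), DUSP1 (0.96 and 0.84) and IER2 (0.94 and 0.75) were most like FOS. CCN1 encodes a secreted matrix protein, KLF6 a zinc finger factor and DUSP1 a phosphatase of MAP kinases. CCN1 stood at 22.4, 58.2 and 68.3 CPM in the untreated replicates, again with replicate 1 lowest. The genes most like JUN were PPP1R15A (0.98, and 0.86 without untreated replicates 2 and 3), KLF6 (0.97 and 0.80), CCN1 (0.95 and 0.81) and DUSP1 (0.95 and 0.64). Those most like ATF3 were RGS14 and CCN2 (0.94 each), NINL and PDGFA (0.92 each), all at 0.89 to 0.94 without those 2 libraries.

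The rest of the pathway was counted from lists drawn up with earlier results of these libraries known, and most of its calls were at 360 min. The lists' differences of 10 and 30 min from 0 min are therefore a description. No adjusted p-values are given for them, and nothing is read from their counts. At 10 min against 0 min no gene of any list was called in edgeR or limma voom. An unadjusted p under 0.05 was reached by 2 of 23 partners and other leucine zipper genes, 3 of 32 upstream kinases and factors, 6 of 20 genes that act on AP-1 proteins or their mRNA and 6 of 27 AP-1 target genes, beside 10.9% of all genes. DESeq2 called 2 genes that act on AP-1 proteins or their mRNA and 1 target gene at that time, and 0 of the other lists. At 30 min, 1 partner was lower, beside 0.585% of all genes, and none higher. It was MAFG, a small MAF protein, at -0.22 ± 0.04 (SE), a call lost without most single libraries. Upstream genes had 0 calls in edgeR at 30 min, with 2 of 32 at an unadjusted p under 0.05 (9.29% of all genes) and 0 called in DESeq2 and in limma voom. Of the 20 genes that act on AP-1 proteins or mRNA, TRIB1 and ZFP36L1 were called lower, at -0.52 ± 0.07 and -0.42 ± 0.09. TRIB1 is a pseudokinase that guides degradation of C/EBP proteins. ZFP36L1 binds AU-rich mRNA and promotes its decay, and it lost its call without most single libraries of the pair.

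At 360 min against 0 min 3 of 23 partners rose and 2 fell, beside 8.89% and 9.19% of all genes. ATF5 rose by 0.40 ± 0.06 (SE, adjusted p = 0.000444), MAFG by 0.30 ± 0.04 (adjusted p = 0.000536) and DDIT3, the stress factor CHOP, by 0.55 ± 0.16 (adjusted p = 0.0338). CEBPA, a liver-enriched factor, fell by 0.42 ± 0.05 (log2, adjusted p = 5.99e-05). ATF6, a sensor of unfolded proteins in the endoplasmic reticulum, fell by 0.14 ± 0.04 (adjusted p = 0.0464). With single libraries left out, 3 to 5 partners were called, 3 without 360 min replicate 2 or 3. Of 32 upstream genes 7 rose and 3 fell. With single libraries left out, 4 to 7 of these genes were called in place of 10, with 4 without 360 min replicate 2 and 5 without untreated replicate 1 or 360 min replicate 3. SOS1, which loads RAS with GTP, rose by 0.43 ± 0.04 (adjusted p = 3.85e-05) and RPS6KA3, a kinase downstream of ERK, by 0.26 ± 0.03 (adjusted p = 0.000231). ELK3, an ETS factor that works with SRF, fell by 0.50 ± 0.07 (log2, adjusted p = 0.000306). Of 20 genes that act on AP-1 proteins or mRNA, 3 rose and 1 fell at 360 min. CNOT1, the scaffold of the main deadenylase, rose by 0.32 ± 0.04 (adjusted p = 0.000121) and ITCH, a ubiquitin ligase for JUN proteins, by 0.26 ± 0.03 (adjusted p = 0.000238). TRIB1 fell by 0.36 ± 0.07 (adjusted p = 0.00230). These 3 lists had median log2 values of 0.01, 0.07 and 0.06, beside 0.00 over all genes. The calls of DDIT3 and ATF6 were lost without some single libraries and with untreated replicate 1 alone, as the call of TRIB1 was in the latter.

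AP-1 target genes, 27 of 39 listed genes with enough counts, were lower more often than higher at 360 min. Against 0 min 13 fell and 1 rose, beside 9.19% and 8.89% of all genes. Their median log2 value was -0.18, beside 0.00 over all genes. HMOX1, which degrades heme, fell by 0.70 ± 0.05 (log2, with SE, adjusted p = 4.07e-06), from 87.9 ± 8.33 CPM (SD, n = 3) to 53.9 ± 1.28 CPM. TGFB1, a secreted growth regulator, fell by 0.49 ± 0.05 (adjusted p = 2.62e-05) and KRT8, a keratin of simple epithelia, by 0.33 ± 0.03 (adjusted p = 1.86e-05). CDKN1A, a cell cycle inhibitor, rose by 0.22 ± 0.07 (adjusted p = 0.0363), a call lost without any single untreated library. At 30 min against 0 min 3 target genes were lower, beside 0.585% of all genes, and none higher. They were VEGFA at -0.44 ± 0.06, LIF at -0.66 ± 0.11 and DUSP1 at -1.67 ± 0.31. These values and their count are a description, since the list was drawn up with earlier results known. LIF lost its call without untreated replicate 3, 30 min replicate 1 or 30 min replicate 3, and DUSP1 without any single library of the pair except untreated replicate 1. With untreated replicate 1 alone DUSP1 was at -0.35 at 30 min, and fewer target genes were called at 360 min. Between 30 and 360 min 4 of 27 rose and 10 fell, beside 11.4% and 11.3% of all genes. LIF, a cytokine of the interleukin 6 family, rose by 0.86 ± 0.11 (adjusted p = 0.000114) and VEGFA by 0.27 ± 0.06 (adjusted p = 0.00474). Their sign at 30 min against 0 min was the reverse, but both comparisons use the same 30 min libraries. Means at 0, 30 and 360 min were 15.0, 9.48 and 17.2 CPM for LIF and 185.5, 136.5 and 164.2 CPM for VEGFA. Between 10 and 30 min 1 target gene fell, VEGFA by 0.59 ± 0.06 (log2, adjusted p = 0.000310), beside 0.411% of all genes called lower there. Between 10 and 360 min 11 fell and 2 rose, beside 12.7% and 12.9% of all genes. Whether the level of any AP-1 gene bears on these genes was not tested.

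**Figure D4:**
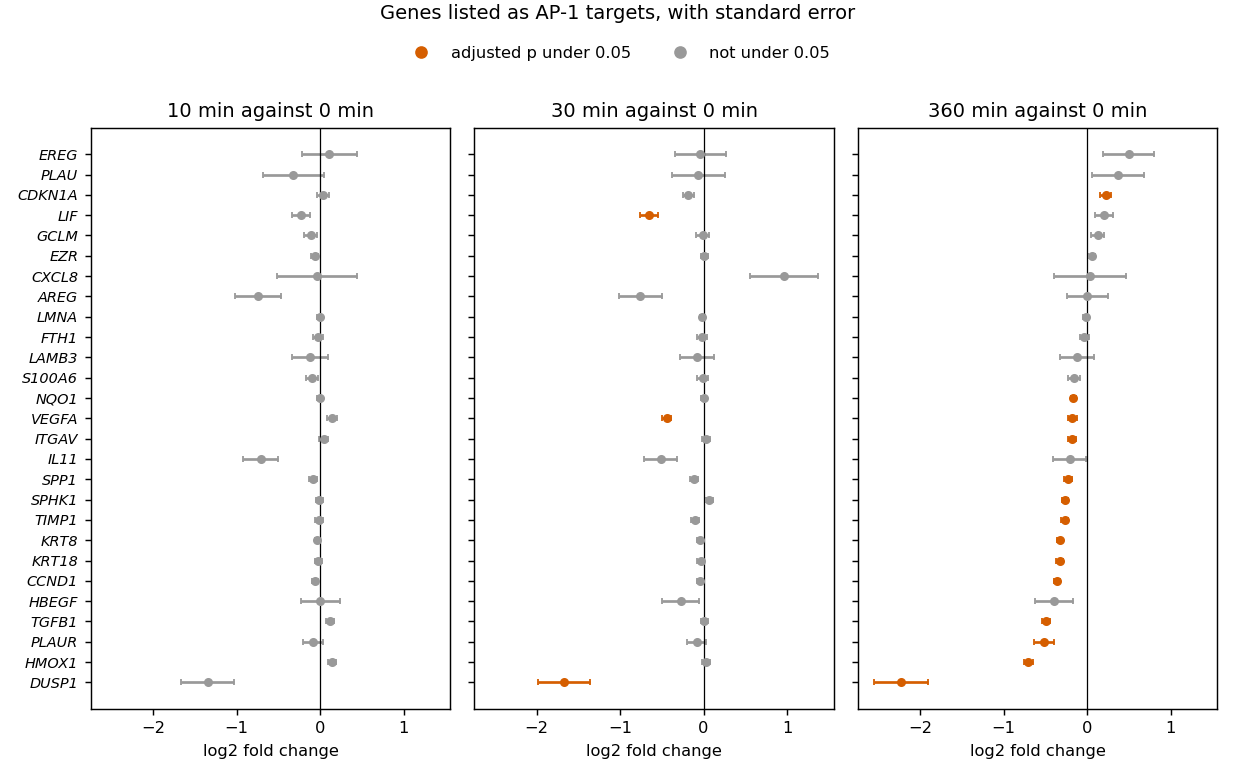
Log2 fold change against 0 min (x axis, bars of 1 SE) of the 27 measured AP-1 target genes (rows) at 10, 30 and 360 min, with genes called by edgeR at an adjusted p under 0.05 in orange. There are 0 orange points at 10 min, 3 at 30 min and 14 at 360 min, of which 13 lie to the left of 0.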

How the data were processed

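The authors deposited raw counts, 1 row per gene and 1 column for each of the 12 libraries, with no scaling. The submitters' processing notes name HISAT2, DESeq2 and GRCh38. How each tool was used, which program counted reads, on which annotation and whether by strand is not given in the sources used here. Where genes overlap on opposite strands, their counts are uncertain. Members and lists were chosen with earlier results of these data known, and 1 gene of the target list is not reported here. Counts were filtered with filterByExpr, scaled by TMM (factors 0.981 to 1.014) and fitted with the quasi-likelihood test of edgeR 4.0.16 in R 4.3.3, with 1 coefficient per group over all 12 libraries and 8 residual degrees of freedom. P-values are two-sided and Benjamini-Hochberg adjusted over the 17779 genes tested, with a threshold of 0.05. They rest on a spread fitted per gene over all 12 libraries, so that the untreated replicates enter it also where they are not compared. The SE of a log2 fold change is its size divided by the square root of F. CPM is TMM-scaled and given as mean ± SD. Intervals are 95% and floors cover counting error only. Lengths and positions come from GENCODE release 29, in which 58394 of the identifiers were found, and promoter sequences from RefSeq. All 8 members were named, and from each list up to 3 called genes per direction with the smallest p were eligible. Likeness is the Pearson correlation of log2 CPM (prior count 2), for the 4 most alike genes. The test was checked on simulated data whose spread followed the trend over genes and was alike in every group. That check does not cover genes with a wide spread among the untreated replicates, such as FOS, FOSB and JUN. Alternatives were DESeq2 1.42.0, limma voom (limma 3.58.1), scaling by RLE or by total counts, a filter left out or tightened (a minimum of 1 CPM in 3 libraries and of 100 counts over all), a fit of the compared groups only, a block for the replicate number, a term for mitochondrial share, other thresholds, untreated replicate 1 alone and the omission of each library. The libraries on each side of the gap in mitochondrial share alone, and the longest transcript as length, were added after seeing the data.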

Additional observations from a re-analysis of the deposited data

How the results depend on the processing

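The direction and call of a member were kept in 815 of 912 alternatives for single genes and comparisons. In 35 a call was gained, in 42 one was lost and in 20 the sign turned, always for a member that the edgeR test on all libraries had not called. The number of the 8 members called at 10 min against 0 min went from 0 to 4 with DESeq2, to 3 without a filter and to 0 to 3 when single libraries were left out (3 without untreated replicate 1). At 30 min against 0 min it went from 4 to 0 in the libraries of high mitochondrial share alone, and to 3 to 4 with single libraries left out. The count was 3 in limma voom, without FOS and FOSB and with ATF3, and 5 with DESeq2. JUN lost its call without any single library of the pair except untreated replicate 1. At 360 min against 0 min it went from 5 to 3 in the libraries of high mitochondrial share alone. Between 10 and 30 min it went from 0 to 3 with DESeq2, to 2 with the 2 groups alone and to 1 at an adjusted p under 0.1. Between 30 and 360 min it went from 2 to 0 and 1 in the libraries of high and low mitochondrial share alone, to 0 at an adjusted p under 0.01, to 4 under 0.1 and to 0 to 3 with single libraries left out. Between 10 and 360 min it went from 3 to 5 with the 2 groups alone, to 1 at an adjusted p under 0.01 and to 1 to 3 with single libraries left out. Where the cause is not the smaller number of libraries or the threshold itself, the cause was not tested.

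Signs that turned were small log2 values, ATF6 being the one gene among them that had been called. JUND at 10 min against 0 min was at 0.033 with a term for mitochondrial share, 0.12 with untreated replicate 1 alone and 0.11 in the libraries of high share alone. At 30 min against 0 min JUND was at 0.016 with untreated replicate 1 alone and 0.029 in the high-share libraries. In those libraries FOSL2 was at 0.061 and ATF6 at 0.00080 for 360 min against 0 min, and FOSL1 at 0.091, JUNB at 0.043 and JUND at -0.029 for 360 min against 10 min. FOSL1 was at 0.14 in that comparison with the term. With single libraries left out, FOSL1 ranged from -0.14 to 0.053 and JUND from -0.11 to 0.049 at 10 min against 0 min. At 360 min against 0 min FOSL1 ranged from -0.16 to 0.027 and JUND from -0.042 to 0.12. FOSL2 ranged from -0.015 to 0.075 at 360 min against 30 min, and FOSL1 from -0.084 to 0.0087 at 360 min against 10 min.

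Over all genes, edgeR called 3, 136 and 102 for 10 min against 0 min, 30 min against 0 min and 30 min against 10 min, and DESeq2 172, 276 and 290. In the libraries of high mitochondrial share alone 360 min against 0 min had 277 calls in place of 3215. The replicate numbers showed no strong pairing of the libraries. Of 18 same-numbered pairs 0 had a correlation of deviations over 0.1 (-0.0541 to 0.0991), and 6 of 12 libraries correlated best with one of their own number. Such small correlations cannot exclude a weak pairing. With the replicate block the members called were 0, 4 and 5 at 10, 30 and 360 min against 0 min, 0 at 30 min against 10 min, 2 at 360 min against 30 min and 3 at 360 min against 10 min, as without it. With 3 untreated libraries of which 1 lay apart, the sizes for FOS, FOSB and JUN against 0 min are poorly fixed.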
